A study of Bos taurus with 12 samples.

Results

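DNA methylation is written and erased by a small set of enzymes, and the 10 described here are DNMT1, DNMT3A, DNMT3B, DNMT3L, TET1, TET2, TET3, UHRF1, UHRF2 and TDG. They were taken by symbol from a table of read counts, where 10 of 10 were found among 32637 listed genes. None of them lies on a sex chromosome. Their RNA was measured in expanded bovine blastocysts (Bos taurus) produced in vitro, in 6 female and 5 male libraries. Each library is a pool of 2 cut embryos of one sex, and each embryo had been cut so that both pieces held inner cell mass and trophectoderm, with sex determined by PCR on the other piece. No treatment separated the groups, and the labels give the stage as expanded blastocyst with no day of collection. A further Iso-seq sample of 4-cell embryos of mixed sex was not used here. The lineages were not separated, so the values are averages over inner cell mass, trophectoderm and hypoblast cells.

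In mammals, methyl groups sit mostly on the cytosine of CG pairs. DNMT1, brought to newly copied DNA by UHRF1, restores the mark after each replication, while DNMT3A and DNMT3B place it on unmethylated DNA. TET enzymes oxidise the methyl group, and TDG removes the oxidised base so that repair can return plain cytosine. After fertilization most of the inherited methylation is lost, and it is laid down again from about the blastocyst stage onwards in a manner that differs between the inner cell mass and the trophectoderm, which makes the blastocyst a stage where writers and erasers are both of interest.

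The libraries held 6664112 to 16162985 counted reads in females and 9942952 to 21392764 in males. Summed counts of the Y-linked genes USP9Y, ZFY and DDX3Y were 0 to 34 in the female libraries and 1200 to 4476 in the male ones. Pearson's r of log2 CPM between libraries of a sex, taken across the tested genes, ran from 0.861 to 0.963, so no library was a copy of another. Male replicate 5 stood apart from the rest. It had the fewest genes with a count, 14937 against 16985 to 18550 in the other libraries, and KRT8 at 20104 CPM against 2280 to 7302 elsewhere. All values below are CPM, counts scaled to the size of the library with TMM factors, differences are given as log2 fold changes of males over females with a standard error (SE) and a 95% confidence interval, and n is the number of pools. Transcript lengths were not used here, so levels are compared between libraries and not between genes.

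Of the 9 members with enough reads to test, 0 were called sex-biased at an FDR under 0.1 and a fold change over 1.5 in edgeR's quasi-likelihood test, and 0 had an unadjusted p under 0.05. DESeq2 also called 0, and limma voom called 0 with 1 member, UHRF2, at an unadjusted p under 0.05. Among all 12802 tested genes edgeR called 245, 1.91%, and 1692 had an unadjusted p under 0.05. In limma voom 1788 of the 12802 genes were under that p. In males 5 members were higher in estimate and 4 lower, and their median log2 fold change was 0.05 beside 0.01 over all tested genes. The median size of the difference regardless of sign was 0.15, against 0.28 over all tested genes. All 9 members had libraries of one sex overlapping those of the other. Among all 12802 tested genes, only 1.88% had every female library above every male one, so overlap is not particular to the members. The share in the other direction is not given here. The intervals were wide, from 0.97 to 1.42 on the log2 scale in full width, so a missing call does not show that the sexes expressed a member alike.

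**Figure D1:**
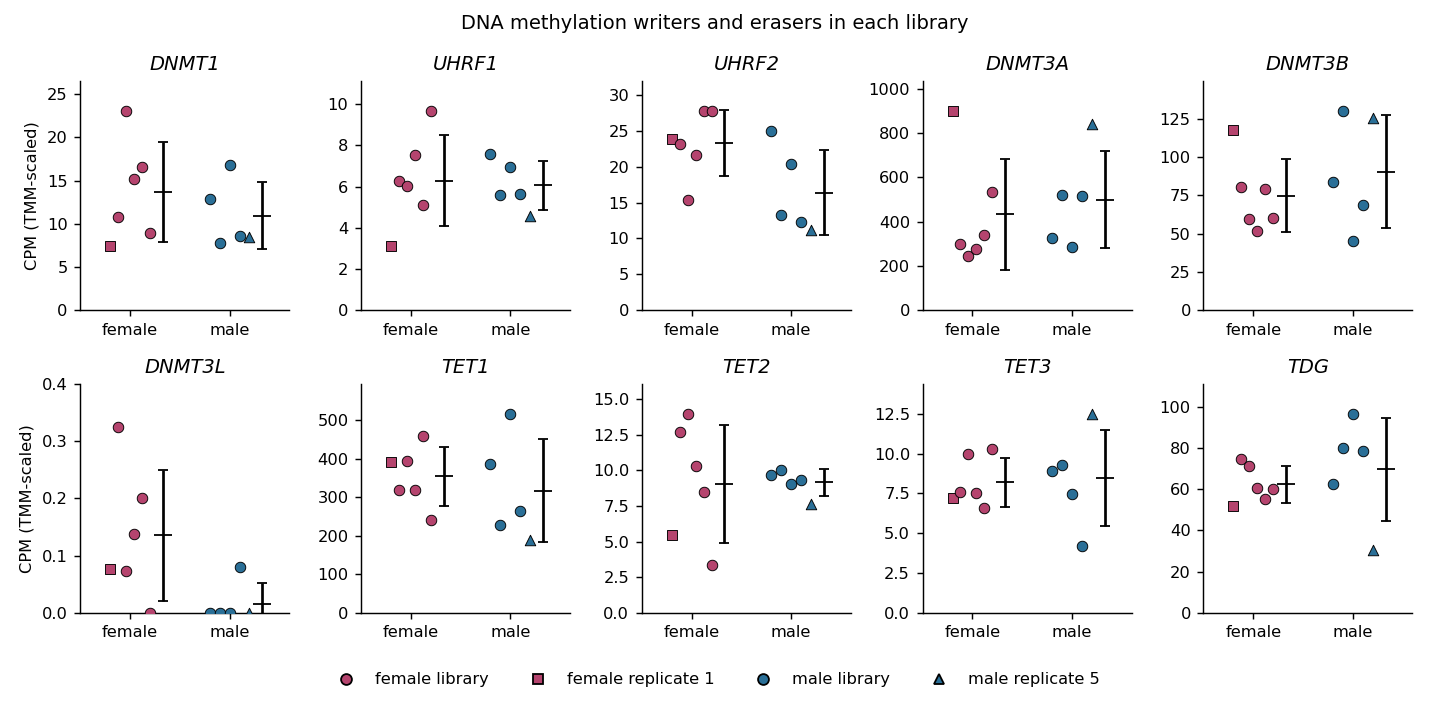
Level of each member in CPM (TMM-scaled, linear axis from 0) in the 6 female and 5 male libraries, one point per library, with mean and SD beside the points. Female replicate 1 (square) and male replicate 5 (triangle) hold the highest DNMT3A, at 900 and 841 CPM, and the sexes overlap in every panel.

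Maintenance methylation was represented by DNMT1 and UHRF1. DNMT1, the maintenance methyltransferase (chromosome 7, 14679336 to 14730638, ARS-UCD2.0), ranged in females from 7.37 to 23.1 CPM with a median of 13.0, and the male libraries held 12.9, 7.81, 16.8, 8.57 and 8.46 CPM. Both sexes thus had libraries near 8 CPM and libraries above 16 CPM. The means were 13.7 ± 5.81 (SD, n = 6) in females and 10.9 ± 3.88 (SD, n = 5) in the male pools, which is a log2 fold change of −0.20 (SE 0.27, interval −0.78 to 0.38, FDR 0.808). UHRF1 (chromosome 7, 19223876 to 19257799) binds DNA methylated on one strand and guides DNMT1 to it. Its female libraries ran from 3.12 to 9.68 CPM with a median of 6.15, and the males were at 7.60, 5.59, 6.94, 5.63 and 4.59 CPM. The lowest and the highest UHRF1 level were thus both in females. At 6.29 ± 2.22 (SD, n = 6) and 6.07 ± 1.19 (SD, n = 5) CPM the log2 fold change was −0.01 (SE 0.32, interval −0.71 to 0.69, FDR 0.994).

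UHRF2, the paralogue of UHRF1 (chromosome 8, 38319319 to 38392208), showed the largest difference of the tested members, and it did not pass. Female libraries lay between 15.3 and 27.8 CPM with a median of 23.5, and male libraries were at 25.0, 13.3, 20.3, 12.3 and 11.1 CPM. Male replicates 2, 4 and 5 fell below every female library, while male replicates 1 and 3 lay inside the female range. The means of 23.3 ± 4.62 (SD, n = 6) and 16.4 ± 5.97 (SD, n = 5) CPM gave a log2 fold change of −0.53 (SE 0.26, interval −1.10 to 0.04) with an unadjusted p of 0.0656 and an FDR of 0.416. In every alternative setting run its log2 fold change lay between −0.77 and −0.39, and it was never called. UHRF2 made up 71.8% to 88.5% of the reads of the UHRF pair in females and 68.6% to 76.6% in males, and this share was not tested.

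Among the de novo methyltransferases, DNMT3A differed more between pools of the same sex than DNMT3B did. DNMT3A (chromosome 11, 73971517 to 74074893) was measured in females at 245 to 900 CPM with a median of 319, and in males at 327, 521, 286, 515 and 841 CPM. Female replicate 1 and male replicate 5 were the highest of their sex. The means were 432 ± 251 (SD, n = 6) and 498 ± 219 (SD, n = 5) CPM, with a log2 fold change of 0.08 (SE 0.30, interval −0.58 to 0.75, FDR 0.939). Its SD of log2 CPM within a sex was 0.67, the largest of the tested members, with 0.53 for DNMT3B. The median over all tested genes was 0.48. DNMT3B (chromosome 13, 62142409 to 62176735), the other catalytic de novo enzyme, lay between 51.8 and 118 CPM in females, median 69.7, and at 83.6, 130, 45.1, 68.5 and 126 CPM in males. Male replicates 2 and 5 were above every female library and male replicate 3 was below every one. The means were 74.9 ± 23.9 (SD, n = 6) and 90.6 ± 36.8 (SD, n = 5) CPM, a log2 fold change of 0.15 (SE 0.22, interval −0.34 to 0.63, FDR 0.831). DNMT3A took 78.7% to 89.9% of the reads on the pair in females and 79.7% to 88.3% in males. Per read on DNMT3B this is 3.70 to 8.87 reads on DNMT3A in the female libraries and 3.92 to 7.52 in the male ones, a 2.39-fold range.

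DNMT3L (chromosome 1, 144241619 to 144256972), which has no catalytic activity of its own and stimulates DNMT3A and DNMT3B, was close to absent in the reads. The female libraries held 1, 3, 1, 1, 2 and 0 counts and the male libraries 0, 0, 0, 1 and 0, in all 8 and 1. Every count is at or under the limit of 3 counts that a value of 0 allows, which is 0.140 to 0.450 CPM depending on the library and covers counting error only. The filter on low counts removed it, and an exact two-sided permutation test of the mean CPM gave p = 0.0693, where the smallest p possible with 6 against 5 libraries is 0.00216. A difference between the sexes was not detectable at this depth.

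Of the reads on the oxidising enzymes most fell on TET1, which without transcript lengths is not a ranking of transcript levels. TET1 (chromosome 28, 24907396 to 25044214), known for its role in pluripotent cells, was at 241 to 459 CPM in females with a median of 355, and at 387, 228, 517, 265 and 188 CPM in males. The male libraries held both the highest and the lowest value. The means were 354 ± 76.6 (SD, n = 6) and 317 ± 134 (SD, n = 5) CPM, a log2 fold change of −0.17 (SE 0.24, interval −0.68 to 0.35, FDR 0.820). TET2 (chromosome 6, 19895939 to 20039291), a TET enzyme without the CXXC domain of its relatives, was at 3.33 to 14.0 CPM in females with a median of 9.39, and at 9.67, 10.02, 9.06, 9.36 and 7.64 CPM in males. The male libraries were closer together than the female ones, with SDs of 0.916 and 4.12 around means of 9.15 and 9.04 CPM (n = 5 and n = 6), and the log2 fold change was 0.15 (SE 0.33, interval −0.56 to 0.85, FDR 0.896). No test of the spread was run. TET3 (chromosome 11, 10555697 to 10667899), the enzyme of the oocyte and zygote, was at 6.59 to 10.3 CPM in females, median 7.56, and at 8.92, 9.29, 7.46, 4.20 and 12.5 CPM in males. Male replicates 4 and 5 held the lowest and highest level. The log2 fold change was 0.05 (SE 0.30, interval −0.61 to 0.71, FDR 0.969) at means of 8.21 ± 1.55 (SD, n = 6) and 8.48 ± 3.02 (SD, n = 5) CPM.

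TET1 took 94.0% to 96.9% of the reads on the TET genes in females and 90.3% to 96.9% in males. The lowest share, 90.3%, was that of male replicate 5. These shares, like those of the UHRF pair and of DNMT3A with DNMT3B above, are not corrected for transcript length.

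TDG (chromosome 5, 67632492 to 67653342), the glycosylase that cuts out oxidised methylcytosine, was at 51.6 to 74.9 CPM in females with a median of 60.5, and at 62.5, 80.2, 96.7, 78.3 and 30.2 CPM in males. Male replicate 5 was far below all other libraries, and male replicates 2, 3 and 4 were above every female library. The means were 62.3 ± 9.01 (SD, n = 6) and 69.6 ± 25.1 (SD, n = 5) CPM, a log2 fold change of 0.17 (SE 0.24, interval −0.34 to 0.68, FDR 0.808). Biological coefficients of variation of the tested members ran from 0.271 for DNMT3B to 0.384 for UHRF1 and TET2. Of the 9, 4 were above the median of 0.348 over all tested genes, and DNMT3A was near it at 0.351.

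**Figure D2:**
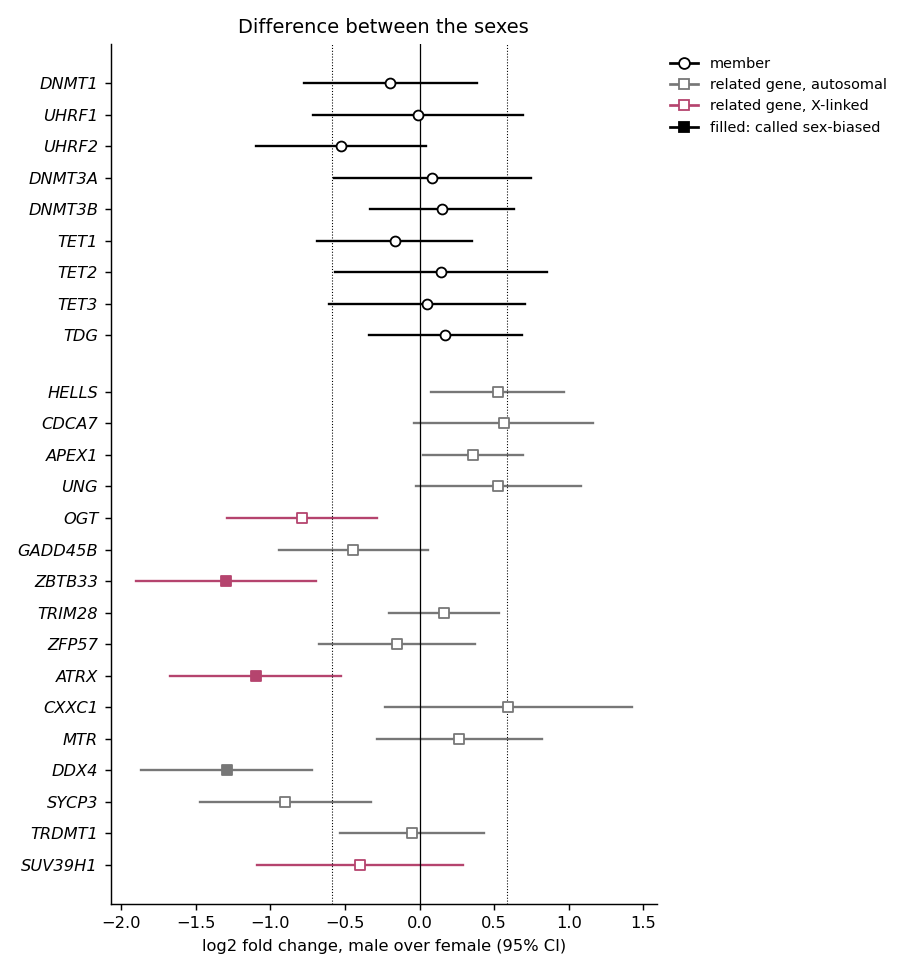
Log2 fold change of males over females with its 95% confidence interval for the 9 tested members (circles) and 16 related genes (squares), from edgeR's quasi-likelihood fit. Dotted lines mark the fold change of 1.5, filled symbols are called, and the member intervals all cross 0 while ZBTB33, ATRX and DDX4 lie to the left.

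The balance between members varied widely from pool to pool within each sex. Reads on DNMT3A per read on DNMT1 were 122, 27.5, 10.6, 18.1, 20.6 and 59.5 in the female libraries and 25.4, 66.8, 17.0, 60.1 and 99.4 in the male ones, an 11.5-fold range. DNMT3A per TET1 was 0.621 to 2.30 in female libraries and 0.553 to 4.48 in male libraries. Over the 11 libraries, log2 CPM of DNMT1 and DNMT3A were negatively related (Pearson's r = −0.858, permutation p = 0.00082, adjusted 0.0369, Spearman's rho = −0.873, permutation p = 0.00097, adjusted 0.0436). The adjustment is over 90 relations, namely 36 between members, 36 between a member and a marker list, and 18 between a member and a measure of the library. Without female replicate 1 and male replicate 5, the libraries farthest from the median, r was −0.881, in the female libraries alone −0.853, and after removal of the means of sex and library number −0.786. The 6 libraries with DNMT3A at 245 to 341 CPM all had DNMT1 at 10.8 to 23.1 CPM, and the 5 with DNMT3A at 515 to 900 CPM had DNMT1 at 7.37 to 8.98 CPM. Both ranges hold libraries of both sexes, 4 female and 2 male in the lower and 2 female and 3 male in the upper. Within the 6 libraries of the lower range r was −0.569 (exact permutation p = 0.236), which did not pass on its own. This range was set by the level of DNMT3A itself, and a narrowed range with 6 libraries makes a weaker r likely. No conclusion is drawn from it. The upper range, each library number and the male libraries alone hold fewer than 6 libraries, so no correlation is given within them.

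Marker genes of the blastocyst lineages were read in the same libraries, from lists of 7 inner cell mass, 10 trophectoderm, 7 hypoblast and 7 cumulus genes. Trophectoderm is the outer layer that forms the placenta, and the inner cell mass and hypoblast give rise to the embryo and yolk sac. In a bulk sample, fewer cells of a type and less RNA per cell cannot be told apart. The summed level of the 10 trophectoderm genes was 7860 to 23116 CPM in females and 9181 to 36075 CPM in males, with all 10 detected in every library. That of the 6 inner cell mass genes in the table was 559 to 978 CPM in females and 790 to 1074 CPM in males. Summed hypoblast levels were 228 to 620 CPM in females and 208 to 466 CPM in males. In this list FOXA2 was under 1 CPM in every library, SOX17 was at 0.0760 to 1.23 CPM and GATA4 at 0.304 to 2.74 CPM. The 7 cumulus genes, which mark maternal cells around the oocyte, summed to 7.18 to 32.6 CPM in females and 5.37 to 29.4 CPM in males, and INHA, AMH and FOXL2 were under 1 CPM in every library. No tested marker was called between the sexes in edgeR's quasi-likelihood test, 0 of 6 inner cell mass, 0 of 10 trophectoderm, 0 of 5 hypoblast and 0 of 3 cumulus genes, with 2 of the 24, PTGS2 and CYP19A1, at an unadjusted p under 0.05. In that edgeR test 1692 of all 12802 tested genes were at an unadjusted p under 0.05. DESeq2 called 1, the trophectoderm marker PTGS2, higher in females, and limma voom called 0.

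DNMT3A was positively related to the trophectoderm list over the 11 libraries (r = 0.925, permutation p = 3e-05, adjusted 0.0027, rho = 0.927, permutation p = 0.00013, adjusted 0.0117). Trophectoderm sums in the female libraries were 23116, 11445, 7860, 12445, 13421 and 21543 CPM and in the male libraries 11080, 20221, 9181, 14798 and 36075 CPM. The libraries with the 5 highest sums, female replicates 1 and 6 and male replicates 2, 4 and 5, were the ones with DNMT3A at 515 CPM or more. The relation was 0.903 without female replicate 1 and male replicate 5, 0.918 in females alone, 0.877 after the means of sex and library number, and 0.907 to 0.950 with each library left out in turn. Within the 6 libraries of lower DNMT3A it was 0.738 (exact permutation p = 0.103), with the same limit of a narrowed range. DNMT3A was positively related to each of the 10 markers taken singly, with r from 0.05 to 0.909 and a median of 0.689. The genes KRT8, LGALS3, KRT18 and PTGS2 made up 90.5% to 95.9% of the sum, and the list's mean log2 level in its place gave r = 0.891. DNMT3A was also lower in libraries with more genes detected (r = −0.744, adjusted permutation p = 0.0544) and with more hypoblast marker RNA (r = −0.801, adjusted permutation p = 0.0544). It was higher in those with more cumulus marker RNA (r = 0.675, adjusted permutation p = 0.127, 0.717 after the means of sex and library number and 0.860 in females alone). None of these passed. The cumulus sum comes mostly from FSHR, and the list's mean log2 level in its place gave r = 0.446. The part of cell makeup and of library complexity in these relations was not tested.

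DNMT1 went the other way, with lower levels where trophectoderm marker RNA was higher (r = −0.819, permutation p = 0.00202, adjusted 0.0454, rho = −0.855, permutation p = 0.00149, adjusted 0.0447). Without female replicate 1 and male replicate 5 r was −0.841, in females alone −0.889, and after the means of sex and library number −0.766. In the 6 libraries of lower DNMT3A it was −0.598 (exact permutation p = 0.239), again with that limit. The list's mean log2 level in place of its sum gave −0.738. Of the 10 markers, 9 had a negative r with DNMT1, with a median of −0.554 over the list, −0.136 for GATA3 and 0.171 for TFAP2C. Other measures also moved with DNMT1 without passing. Its r was −0.696 with the cumulus list (adjusted permutation p = 0.118, −0.806 after the means of sex and library number and −0.870 in females alone), 0.632 with the hypoblast list (adjusted permutation p = 0.174) and 0.573 with genes detected (rho = 0.718, adjusted permutation p = 0.15). With the mean log2 level of the cumulus list in place of its sum, r was −0.486. For the inner cell mass list r was 0.398 (adjusted permutation p = 0.438). This was 0.739 after the means of sex and library number, 0.886 in females alone and −0.0727 with that list's mean log2 level. The part of these measures in the relation was not tested. DNMT1 had 74 to 318 counts in a library, against 2004 to 17394 for DNMT3A. Its values thus carry more counting error, here and in its relation with DNMT3A.

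TET2 was related to the hypoblast list, whose sum comes mostly from GATA6 and PDGFRA (r = 0.795, permutation p = 0.00155, adjusted 0.0454, rho = 0.836, permutation p = 0.00205, adjusted 0.0461). Female replicate 6, with the lowest TET2 of 3.33 CPM, had a hypoblast sum of 228 CPM, and female replicate 3, with the highest TET2 of 14.0 CPM, had 620 CPM. Leaving out female replicate 6 and male replicate 5, the farthest from the median, gave r = 0.848, females alone 0.946, and the means of sex and library number removed 0.742. The list's mean log2 level in place of its sum gave 0.641. TET2 also moved with other measures without passing. Its r was 0.732 with the inner cell mass list (adjusted permutation p = 0.105, 0.930 in females alone). After the means of sex and library number this r was 0.823, and with that list's mean log2 level 0.668. The rho with that list was 0.427. With the trophectoderm list r was −0.619 (adjusted permutation p = 0.174, −0.913 in females alone). With DNMT3A it was −0.625 (rho = −0.782, adjusted permutation p = 0.0838), and with counted reads −0.457 (rho = −0.618, adjusted permutation p = 0.225). Their part was not tested. TET2 had 53 to 193 counts in a library, so its values carry more counting error than those of DNMT3A with 2004 to 17394.

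**Figure D3:**
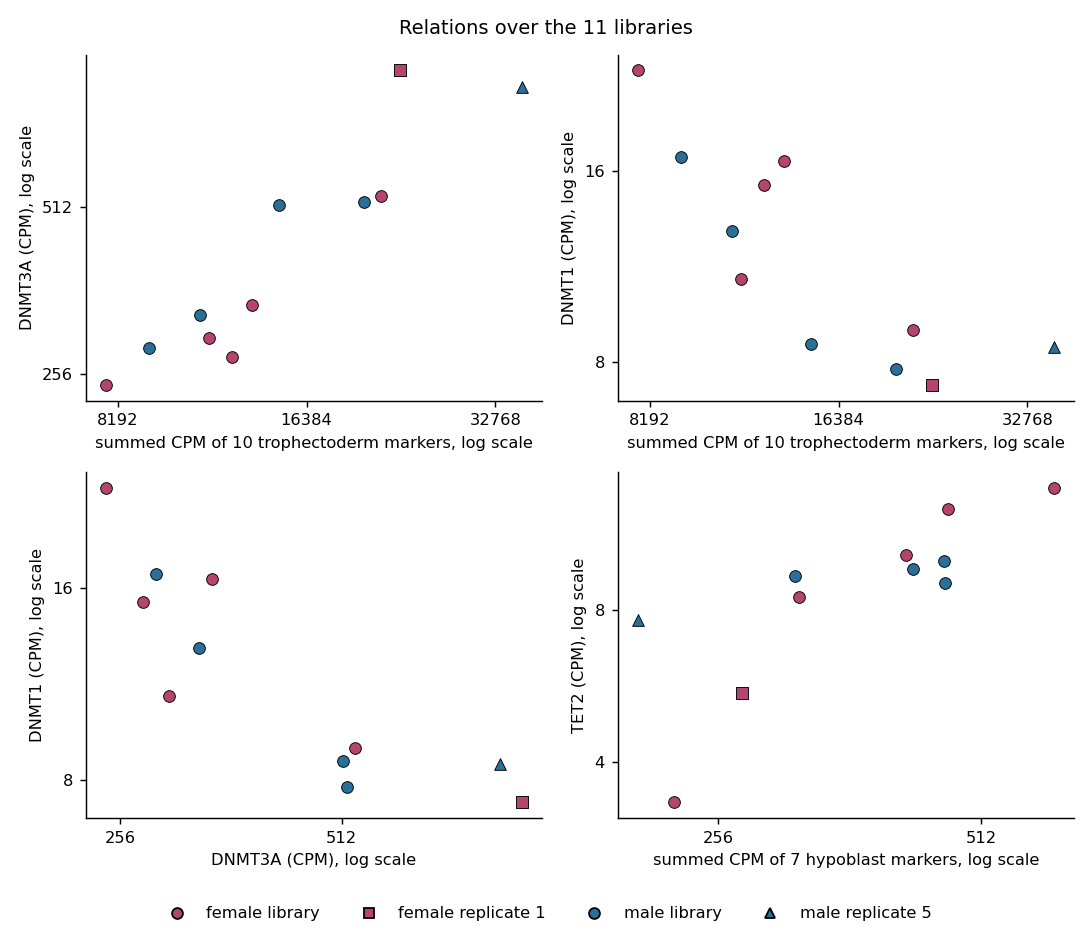
The 4 relations that passed in both coefficients, one point per library and both axes on a log scale in CPM: DNMT3A and DNMT1 against summed trophectoderm markers, DNMT1 against DNMT3A, and TET2 against summed hypoblast markers. Over all 11 libraries r was 0.925, −0.819, −0.858 and 0.795, and the points of both sexes overlap in every panel.

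The other relations did not pass in both coefficients. DNMT3A and DNMT3B had r = 0.716 (adjusted permutation p = 0.11), DNMT1 and TET1 0.678, and TET1 with the trophectoderm list −0.735 (adjusted permutation p = 0.105). TDG with the trophectoderm list had r = −0.715, which dropped to −0.240 without female replicate 1 and male replicate 5.

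**Figure D4:**
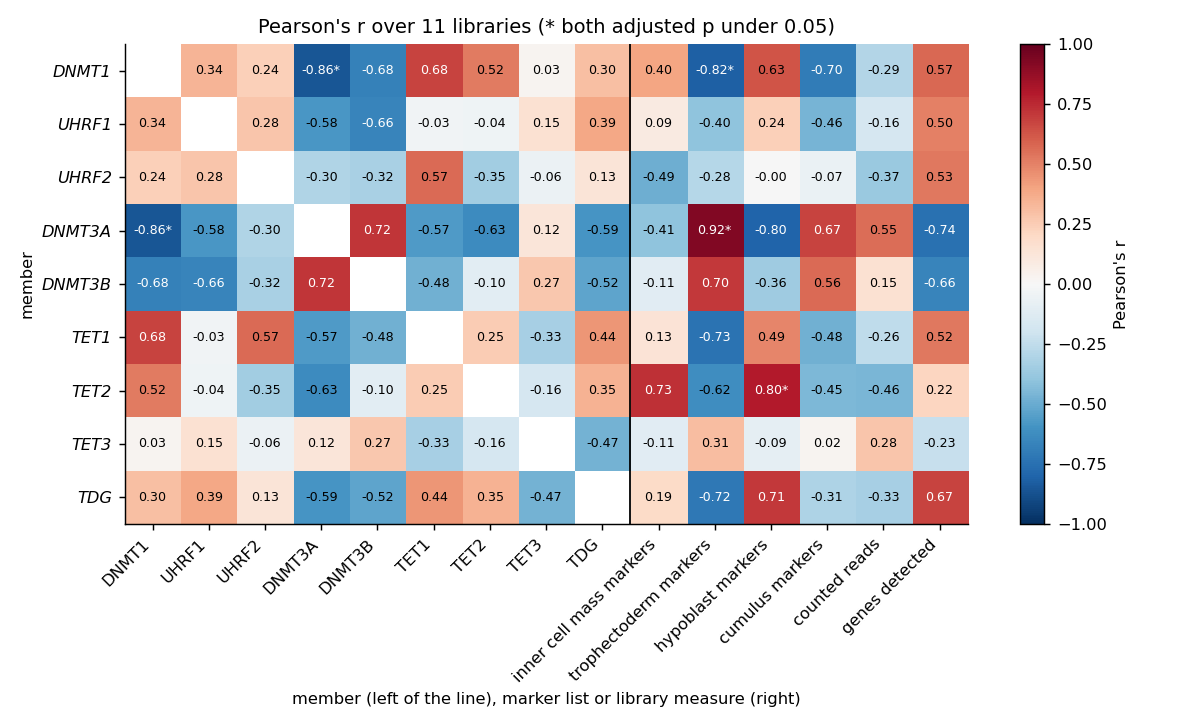
Pearson's r over the 11 libraries between the tested members (left of the line) and between members and marker lists, counted reads and genes detected (right), from log2 CPM. An asterisk marks the relations with both adjusted p under 0.05, which are DNMT1 with DNMT3A, DNMT1 and DNMT3A with trophectoderm markers, and TET2 with hypoblast markers.

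Genes that act with the members were read from lists of 68 genes, of which 65 were tested and CXXC4, ZBTB4 and DAZL had too few reads. In edgeR 3 were called, 0 higher in males and 3 higher in females, where 1.5% of all tested genes were called higher in females. An unadjusted p under 0.05 was seen for 7 of the 65, beside 1692 of all 12802 tested genes. Among the related genes 35 were higher and 30 lower in males in estimate, and the median log2 fold change was 0.04. The 3 called genes were ZBTB33, ATRX and DDX4, each from a different list.

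Both called X-linked genes read or reshape methylated chromatin. ZBTB33, which encodes the methyl-CpG binding protein Kaiso (X chromosome, 4819983 to 4827597), was at 15.0 to 24.8 CPM in females with a median of 21.6, and at 8.10, 10.1, 13.3, 8.17 and 3.53 CPM in males. Every male library was below every female one, which held for 1.88% of all tested genes in the same direction. The means were 21.1 ± 3.60 (SD, n = 6) and 8.65 ± 3.56 (SD, n = 5) CPM, a log2 fold change of −1.30 (SE 0.28, FDR 0.0526). The call was lost without female replicate 2 (FDR 0.142), 4 (0.109) or 5 (0.125) or male replicate 1 (0.115) or 2 (0.106), and with the title number as the block (0.114). ATRX, a chromatin remodeller whose product binds with DAXX (X chromosome, 74597136 to 74883173), was at 203 to 463 CPM in females and at 192, 98.7, 210, 138 and 73.4 CPM in males. Only male replicate 3 reached into the female range. The log2 fold change was −1.10 (SE 0.26, FDR 0.0763) at means of 315 ± 96.3 (SD, n = 6) and 142 ± 58.6 (SD, n = 5) CPM, and the call held only without female replicate 4, male replicate 1 or male replicate 5, with an FDR of 0.108 to 0.192 when any other single library was left out.

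All 5 tested X-linked related genes were lower in males in estimate, the median being −0.79, and 27.7% of all tested X-linked genes were called higher in females, so 2 of 5 is read beside that share. OGT, the O-GlcNAc transferase and a binding partner of TET enzymes, had a log2 fold change of −0.79 (SE 0.23, FDR 0.151), with 75.0 ± 25.6 (SD, n = 6) CPM in females and 41.4 ± 10.6 (SD, n = 5) in males. DESeq2 called it in each of its 3 designs, with an FDR of 0.0424 to 0.0540. With the library number DESeq2 called 492 of the 23857 genes it gave a p-value as higher in females. Its share among X-linked genes is not given here. SUV39H1, a histone H3 methyltransferase, had −0.40 (SE 0.32, FDR 0.647). The 60 tested autosomal related genes had a median of 0.08, with 1 called.

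The autosomal call was DDX4 (chromosome 20, 23358254 to 23424672), a germ cell RNA helicase and one of the germline genes that promoter methylation is known to silence in somatic cells. Its levels were 46.5 to 108 CPM in females and 16.5, 11.2, 63.6, 27.9 and 20.9 CPM in males. All male libraries but replicate 3 were below the female range. The log2 fold change was −1.29 (SE 0.26, FDR 0.0407), and the FDR was 0.111 without female replicate 2, 0.118 without female replicate 5, 0.109 without male replicate 1, 0.108 without male replicate 2 and 0.155 without the block for library number. SYCP3, a meiotic axis protein of the same list, had −0.90 (SE 0.26, FDR 0.149), with 162 to 366 CPM in females and 69.3 to 233 CPM in males. DESeq2 called SYCP3 in each of its 3 designs, with an FDR of 0.0220 to 0.0869. Of the 6 tested germline genes 1 was called in edgeR and 2 in DESeq2, and their median in edgeR was −0.19. In estimate 2 of the 6 were higher in males, up to 0.42, and 4 were lower. Over all genes given a p-value, DESeq2 with the library number called 655 of 23857, of which 492 were higher in females.

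Each of the remaining lists had a median between −0.07 and 0.16, and edgeR called none of their genes beyond those above. Among maintenance partners 0 of 7 were called. HELLS, the remodeller that opens chromatin for methylation, had 0.52 (SE 0.20, FDR 0.289) and CDCA7, its partner, 0.56 (SE 0.28, FDR 0.412). Of the 11 repair genes 0 were called in edgeR, with APEX1, the endonuclease that acts after TDG, at 0.36 (SE 0.15, FDR 0.345) and UNG, a uracil glycosylase, at 0.53 (SE 0.25, FDR 0.401). The 8 tested TET modifiers and cofactor genes held no call in edgeR beside the DESeq2 call of OGT, and GADD45B, a stress-response gene linked to demethylation, had −0.44 (SE 0.23, FDR 0.441). TRIM28 and ZFP57, which guard imprinted methylation, had 0.16 (SE 0.17, FDR 0.729) and −0.15 (SE 0.24, FDR 0.840), with 0 of 5 called in their list. CXXC1, a CpG-binding protein among the 13 chromatin genes, had 0.59 (SE 0.38, FDR 0.552). MTR, the methionine synthase and 1 of the 6 genes that supply methyl groups, had 0.27 (SE 0.25, FDR 0.711). TRDMT1, an RNA methyltransferase once named DNMT2, had −0.05 (SE 0.22, FDR 0.951).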

How the data were processed

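Per the labels and the study's methods, the authors trimmed reads of poly(A) RNA libraries (SMART-Seq HT PLUS) (fastp 0.20.0), aligned these to ARS-UCD2.0 (STAR 2.7.10b), counted them per gene with featureCounts and deposited raw counts, not normalized. Strand and multi-mapping settings are not given in the sources used here. Symbols were matched to the RefSeq annotation of that assembly, 30271 of 32637.

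The test was run in edgeR 4.0.16 (R 4.3.3) on these counts: filterByExpr by sex, TMM factors, quasi-likelihood test of males against females with the library number (first number of the library name, in place of the collection week, which the labels do not give) as a block, and Benjamini-Hochberg FDR over all 12802 tested genes. Log2 CPM used a prior count of 2. Relations used 100000 permutations (scipy 1.17.1). The fit was tested on simulated data. Alternatives were DESeq2 1.42.0, limma 3.58.1, other factors, filters, blocks and thresholds, and each library left out. P-values measure the spread between pools, which may share bulls or weeks. The reads carry no molecular identifiers, so intervals from counts cover counting error only.

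The members and lists were chosen with earlier results of these data known. The genes named are all members and, of the related genes, every called one, every tested X-linked one, and the 2 of smallest p in each list, except 2 genes under this rule that are not reported here.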

Additional observations from a re-analysis of the deposited data

Results flagged for a closer look

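In 52 groups of libraries checked, 2 held a library far from the others (gap to the nearest library over the range of the group), and chance alone gives this in about 5% of groups. UNG in female replicate 3 was at 47.4 CPM against 19.8 to 28.7 CPM in the other female libraries, a ratio of 0.677. DNMT3L in male replicate 4 had 1 count, 0.0793 CPM, where the other male libraries had 0, a ratio of 1 that rests on a single read.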

How the results depend on the processing

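The count of members called was 0 in every alternative run. A comparison of levels per transcript length and shares per length were not run, as no transcript lengths were used here. Of the related genes 3 were called, against 5 with DESeq2 under each of its 3 designs and with every gene of at least 1 count, where OGT and SYCP3 were added, 1 at an FDR under 0.05, 0 in a test against the fold change of 1.5, and 0 to 3 with a library left out (0 without female replicate 2, female replicate 5 or male replicate 2, and 1 without male replicate 1). Over all genes the calls numbered 245 of 12802. They were 655 of 23857 under DESeq2 (739 of 23682 without the library number, 651 of 23857 with both numbers) and 743 of 23857 with every gene of at least 1 count. On the 12802 genes they were 125 at an FDR under 0.05, 62 in the fold-change test and 132 with the title number as block. With a library left out they ran from 95 of 12966 (without male replicate 3) to 364 of 12954 (without male replicate 5). The median log2 fold change was −0.13 under DESeq2 with both numbers (23857 genes) and 0.01 in edgeR (12802 genes).

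Without a replicate block 2 related genes were called, with a replicate block by both numbers of the library name 3 and by the title number 2. Deviations of same-numbered female and male libraries had r from −0.111 to 0.351, and 4 of 10 libraries were closest to their own number, so the numbers were not taken to pair the samples. Estimates that changed sign were TET2 with the title block (−0.0947), TET3 with both numbers (−0.0334 in edgeR and −0.0281 in DESeq2) and in limma voom (−0.0123), and UHRF1 with both numbers (0.0689 in edgeR and 0.0738 in DESeq2) and with the title block (0.141). With each library left out, estimates ran from −0.36 to 0.00511 for DNMT1, −0.10 to 0.46 for DNMT3A, −0.0450 to 0.29 for DNMT3B, −0.42 to 0.0452 for TET1, −0.0827 to 0.36 for TET2, −0.20 to 0.22 for TET3, −0.20 to 0.21 for UHRF1, −0.00426 to 0.36 for TDG, −0.31 to 0.0101 for ZFP57 and −0.22 to 0.13 for TRDMT1. The cause of these changes was not tested. At this depth DNMT3L could not be read in either sex, and the tested members had intervals of 0.97 to 1.42 on the log2 scale.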

Other observations

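Taken marker by marker over the 11 libraries, TDG had a negative r with 10 of 10 trophectoderm markers, from −0.878 to −0.289, and DNMT3B a positive r with 10 of 10, from 0.138 to 0.735. The same held for members with a weak r to the summed list. UHRF1 was negative with 10 of 10, from −0.518 to −0.190 (list r = −0.402), and TET3 positive with 10 of 10, from 0.00757 to 0.383 (list r = 0.309). The markers are read in the same libraries and are not independent of each other. With the summed list none of these members passed, and the r of TDG was −0.240 without female replicate 1 and male replicate 5. TET2 had a positive r with 5 of 5 tested hypoblast markers, from 0.35 to 0.70, and so had TDG, from 0.0519 to 0.853. With the inner cell mass list TET2 had r = 0.732 (rho = 0.427), which was not past the threshold.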
